A study of Mus musculus with 6 samples.

Results

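The rows described are both arms of 5 microRNA hairpins, miR-335, miR-140, miR-361, miR-330 and miR-708, in mouse spinal cord. They make up 10 of the 1482 rows of the deposited small RNA table, where names carry the mouse prefix mmu (mmu-miR-140-5p). The hairpins were chosen from the data for a difference between the 2 groups in the ratio of 5p to 3p reads, so every difference between the groups given for them is a description without a test. All 10 rows passed the filter on low counts, and the 5 hairpins are among 179 for which both arms passed it. The tissue was about 1 cm of cord around the T10 vertebral level, taken on day 2 after surgery. By the labels, the control-labelled mice (3 libraries) had a laminectomy, the opening of the spinal canal, and no cord injury. Also by the labels, the SCI-labelled mice (3 libraries) had the same laminectomy and then a moderate contusion of the cord. The contusion came from a 10 g weight dropped 20 mm. The labels give no strain or genotype, and no statement that libraries of a group came from separate animals beyond the count of 3 mice per group.

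A microRNA hairpin is cut by Drosha and Dicer into a short duplex whose strands come from the 5p and the 3p side of the hairpin. Usually one strand is kept by an Argonaute protein as the guide and the other is degraded, and the strand whose 5′ end is less tightly paired, or starts with U, tends to be kept. Because both strands are made from the same precursor in equal numbers, their ratio in a library reflects steps after Dicer cutting as well as any preference of the ligation used to make the library. The bases at positions 2 to 8, called the seed, select the target mRNAs, so the 5p and 3p arms of a hairpin address different targets.

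The hairpins of miR-335, miR-361 and miR-330 are shown with the 5p arm and then the 3p arm in capitals, to make visible which stretches the reads of each arm come from (RefSeq, GRCm38.p6, 5′ to 3′ on the transcribed strand).
miR-335: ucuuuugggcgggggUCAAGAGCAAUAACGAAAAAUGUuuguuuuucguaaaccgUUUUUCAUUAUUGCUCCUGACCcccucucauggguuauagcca
miR-361: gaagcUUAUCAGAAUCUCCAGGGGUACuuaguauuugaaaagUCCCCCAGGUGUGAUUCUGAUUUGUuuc
miR-330: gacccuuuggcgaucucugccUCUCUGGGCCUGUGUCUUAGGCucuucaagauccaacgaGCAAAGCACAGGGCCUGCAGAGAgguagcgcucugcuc

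RefSeq mature sequences were matched for 9 of the 10 arms. They are given with the seed in capitals, since the seed is what differs in function between the arms of a hairpin.
mmu-miR-335-5p: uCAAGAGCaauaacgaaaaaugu
mmu-miR-335-3p: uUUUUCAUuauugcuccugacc
mmu-miR-140-3p: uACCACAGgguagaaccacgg
mmu-miR-361-5p: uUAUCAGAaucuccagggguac
mmu-miR-361-3p: uCCCCCAGgugugauucugauuugu
mmu-miR-330-5p: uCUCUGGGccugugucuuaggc
mmu-miR-330-3p: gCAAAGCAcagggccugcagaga
mmu-miR-708-5p: aAGGAGCUuacaaucuagcuggg
mmu-miR-708-3p: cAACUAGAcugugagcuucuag
The 9 arms have 9 different seeds.

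All 5 hairpins lie inside a protein-coding gene and on its strand, per GENCODE M21 on GRCm38. Of the 162 tested hairpins with a RefSeq position, 76 (46.9%) lie so. miR-335 (chr6:30741299-30741396, plus strand) is intronic in Mest, an imprinted gene expressed from the paternal copy. miR-361 (chrX:113074824-113074893, minus strand) is intronic in Chm, which encodes a Rab escort protein. miR-708 (chr7:96249424-96249532, plus strand) is intronic in Tenm4, a teneurin of the neuronal surface. miR-140 (chr8:107551244-107551313, plus strand) lies in Wwp2, a ubiquitin ligase gene, and overlaps there 1 exon of a retained-intron transcript. miR-330 (chr7:19181465-19181562, plus strand) lies in Eml2, which encodes a microtubule-associated protein, and overlaps 1 exon of a processed, non-coding transcript.

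Total counts per library ran from 5568491 to 8889977. The labels were first set against miRNAs of injury, and these ran against them. miR-21a-5p, widely reported to rise after tissue damage, was at 75102 to 129161 CPM (the read count relative to the library size after TMM scaling) among control-labelled libraries and at 11198 to 12741 CPM among SCI-labelled ones. miR-223-3p of myeloid cells was at 95.3 to 133 CPM and 5.70 to 10.7 CPM. The deposited columns of the SCI-labelled samples also have names beginning with Normal. Whether the labels of the 2 groups were exchanged was not tested. All directions below are therefore those of the labels as deposited. The neural miRNA miR-9-5p was among the abundant rows in every library, at 53348 to 102142 CPM. Control-labelled library 3 stood apart from libraries 1 and 2 of its group in several values below. Where leaving it out turned a direction or moved a value by more than the spread between libraries, the value without it is given too.

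In all 5 hairpins the 3 ratios of one group lay wholly to one side of the other group's 3. The same held without control-labelled library 3, as it must, since leaving out a library cannot make separate groups overlap. Of all 179 hairpins, 41.3% had groups that did not overlap, and edgeR's arm usage test called 30.2% (54 hairpins; 29, 33 and 30 when SCI-labelled library 1, 2 or 3 was left out). Since the hairpins were chosen on this contrast, nothing is read from that comparison. Relative to control-labelled libraries, miR-335, miR-361 and miR-708 were shifted toward the 3p arm in SCI-labelled ones, and miR-140 and miR-330 toward the 5p arm. Toward 3p, 17.9% of hairpins did not overlap and 14.0% were called; toward 5p, the shares were 23.5% and 16.2%. By the size of the difference in log2(5p/3p), the 5 hairpins ranked 7 (miR-335), 12 (miR-140), 14 (miR-708), 17 (miR-361) and 24 (miR-330) of 179. The median of the signed difference over all 179 hairpins was 0.04, with quartiles of -0.58 and 0.70. Without regard to sign, the median size of the difference was 0.67.

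**Figure D1:**
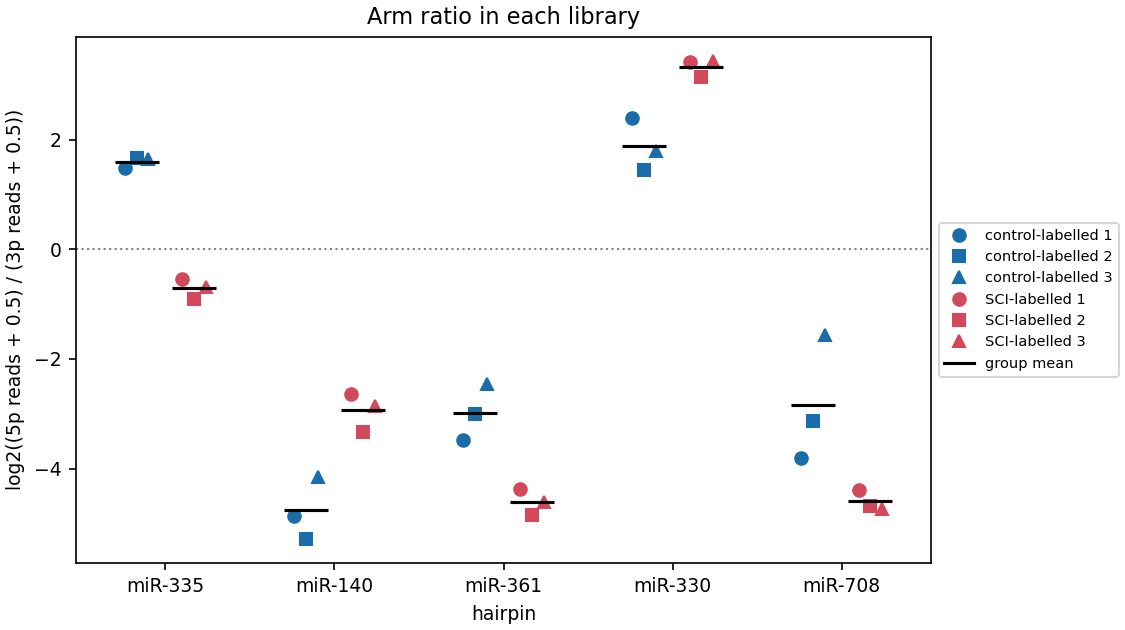
Log2 of the 5p to 3p read ratio (0.5 added to each count) for each hairpin in each of the 6 libraries, with a black bar at each group mean and a dotted line where both arms have equal reads. The groups do not overlap in any of the 5 hairpins, and only miR-335 crosses 0, with values of 1.48 to 1.66 among control-labelled and of -0.91 to -0.54 among SCI-labelled libraries.

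miR-335 was the hairpin in which the majority arm differed between the groups. The 5p arm gave 73.7%, 75.9% and 75.7% of the hairpin's reads in control-labelled libraries 1, 2 and 3, and 40.8%, 34.7% and 38.3% in SCI-labelled libraries 1, 2 and 3. So 5p was the major arm in every control-labelled library and the minor arm in every SCI-labelled one. Exact binomial 95% intervals on these shares were at most 3.67 percentage points wide, and they cover counting error only. The log2 ratio was 1.59 ± 0.10 among control-labelled and -0.71 ± 0.19 among SCI-labelled libraries (SD, n = 3 each), a difference of -2.31 (SE 0.12), or 4.95-fold. Among the 179 hairpins, 15 had group means on opposite sides of equal arms, among them miR-335.

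Both arms of miR-335 contributed, in opposite directions. mmu-miR-335-5p, which has been described as a suppressor of metastasis, was at 383, 378 and 520 CPM in control-labelled libraries 1, 2 and 3 and at 176, 141 and 152 CPM among SCI-labelled ones. Every control-labelled value was above every SCI-labelled value, and the means, 427 ± 80.2 and 157 ± 17.9 CPM (SD, n = 3 each), were 2.72-fold apart. mmu-miR-335-3p was at 137, 120 and 167 CPM among control-labelled and at 256, 266 and 246 CPM among SCI-labelled libraries. Here the order was the other way, with means of 141 ± 23.7 and 256 ± 10.2 CPM (SD, n = 3 each), 1.81-fold higher in the SCI-labelled group. The log2 fold changes, SCI-labelled minus control-labelled, were -1.45 (SE 0.22) for 5p and 0.86 (SE 0.20) for 3p, and that of 3p was 1.04 without control-labelled library 3. The sum of both arms was 568 ± 103 CPM and 413 ± 17.6 CPM (SD, n = 3 each), a 1.38-fold difference with the SCI-labelled group lower, so the hairpin's total differed less than either arm. In bulk tissue, fewer cells that hold a miRNA and less of it per cell cannot be told apart.

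In miR-361 the arms also went opposite ways, around a 3p arm that was dominant in every library. mmu-miR-361-5p was at 86.3, 105 and 121 CPM in control-labelled libraries 1, 2 and 3 and at 54.3, 55.2 and 55.7 CPM among SCI-labelled ones. The SCI-labelled values were almost equal to each other and all lower, with means of 104 ± 17.6 and 55.1 ± 0.74 CPM (SD, n = 3 each), 1.89-fold apart. mmu-miR-361-3p was at 967, 841 and 664 CPM among control-labelled and at 1123, 1581 and 1361 CPM among SCI-labelled libraries. All SCI-labelled values were higher, and the means of 824 ± 152 and 1355 ± 229 CPM (SD, n = 3 each) were 1.64-fold apart. The 5p arm gave 8.19%, 11.1% and 15.5% of the hairpin's reads among control-labelled and 4.61%, 3.37% and 3.93% among SCI-labelled libraries. The log2 ratio differed by -1.63 (SE 0.33), or 3.09-fold, and by -1.36 without control-labelled library 3, whose 5p share was the highest of its group. The sum of both arms was 928 ± 135 and 1410 ± 229 CPM (SD, n = 3 each).

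In miR-140 almost the whole difference lay in the 3p arm. miR-140 is known for its role in cartilage, where its host gene Wwp2 is switched on by Sox9, and its 3p arm is the more abundant one in many tissues. mmu-miR-140-3p was at 8050, 9930 and 5573 CPM in control-labelled libraries 1, 2 and 3 and at 1580, 2237 and 1846 CPM among SCI-labelled ones. The lowest control-labelled value was well above the highest SCI-labelled value, and the means, 7851 ± 2185 and 1888 ± 330 CPM (SD, n = 3 each), were 4.16-fold apart. mmu-miR-140-5p was at 277, 255 and 315 CPM among control-labelled and at 254, 223 and 256 CPM among SCI-labelled libraries. The groups overlapped for this arm, with means of 282 ± 30.2 and 244 ± 18.7 CPM (SD, n = 3 each). The log2 fold changes were -2.06 (SE 0.26) for 3p and -0.21 (SE 0.19) for 5p. The 5p share was 3.33%, 2.50% and 5.34% among control-labelled and 13.9%, 9.06% and 12.2% among SCI-labelled libraries. The log2 ratio was therefore higher by 1.83 (SE 0.39), or 3.54-fold, in the SCI-labelled group while 3p stayed the major arm throughout. Without control-labelled library 3, whose 5p share was the highest of its group, the difference in ratio was 2.13. The sum of both arms was 3.81-fold lower in the SCI-labelled group, at 8133 ± 2155 against 2132 ± 313 CPM (SD, n = 3 each), the largest difference in the sum among the 5 hairpins.

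In miR-330 the 5p arm carried the difference. mmu-miR-330-5p was at 1615, 1208 and 990 CPM in control-labelled libraries 1, 2 and 3 and at 3301, 2912 and 3474 CPM among SCI-labelled ones. The SCI-labelled values were all higher, with means of 1271 ± 317 and 3229 ± 288 CPM (SD, n = 3 each), 2.54-fold apart. mmu-miR-330-3p was at 306, 446 and 286 CPM among control-labelled and at 310, 332 and 320 CPM among SCI-labelled libraries. These groups overlapped, and the spread within the control-labelled group was larger than the gap between the means of 346 ± 87.1 and 321 ± 10.7 CPM (SD, n = 3 each). The log2 fold changes were 1.35 (SE 0.22) for 5p and -0.11 (SE 0.22) for 3p, and that of 3p turned to 0.10 without control-labelled library 2. The 5p share was 84.1%, 73.0% and 77.6% among control-labelled and 91.4%, 89.8% and 91.6% among SCI-labelled libraries. The log2 ratio differed by 1.45 (SE 0.30), or 2.74-fold. The sum of both arms was 1617 ± 324 and 3550 ± 281 CPM (SD, n = 3 each), 2.20-fold higher in the SCI-labelled group.

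miR-708, which has been described as induced by the stress factor CHOP, showed the widest spread within a group. mmu-miR-708-3p was at 1655, 1113 and 698 CPM in control-labelled libraries 1, 2 and 3 and at 2603, 2750 and 2924 CPM among SCI-labelled ones. The SCI-labelled values were all higher and close together, with means of 1155 ± 480 and 2759 ± 161 CPM (SD, n = 3 each), 2.39-fold apart. mmu-miR-708-5p was at 118, 127 and 235 CPM among control-labelled and at 124, 107 and 110 CPM among SCI-labelled libraries. The groups overlapped, and control-labelled library 3 was the only library above the rest. The log2 fold changes were 1.26 (SE 0.29) for 3p and -0.49 (SE 0.29) for 5p, and that of 5p was -0.06 without control-labelled library 3. The 5p share was 6.64%, 10.2% and 25.1% among control-labelled and 4.56%, 3.75% and 3.63% among SCI-labelled libraries. The log2 ratio differed by -1.76 (SE 0.67), or 3.39-fold, with all libraries, and by -1.13, or 2.18-fold, without control-labelled library 3. The gap between the groups, 0.57 on the log2 scale, was the smallest of the 5 hairpins, against 2.02 for miR-335.

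**Figure D2:**
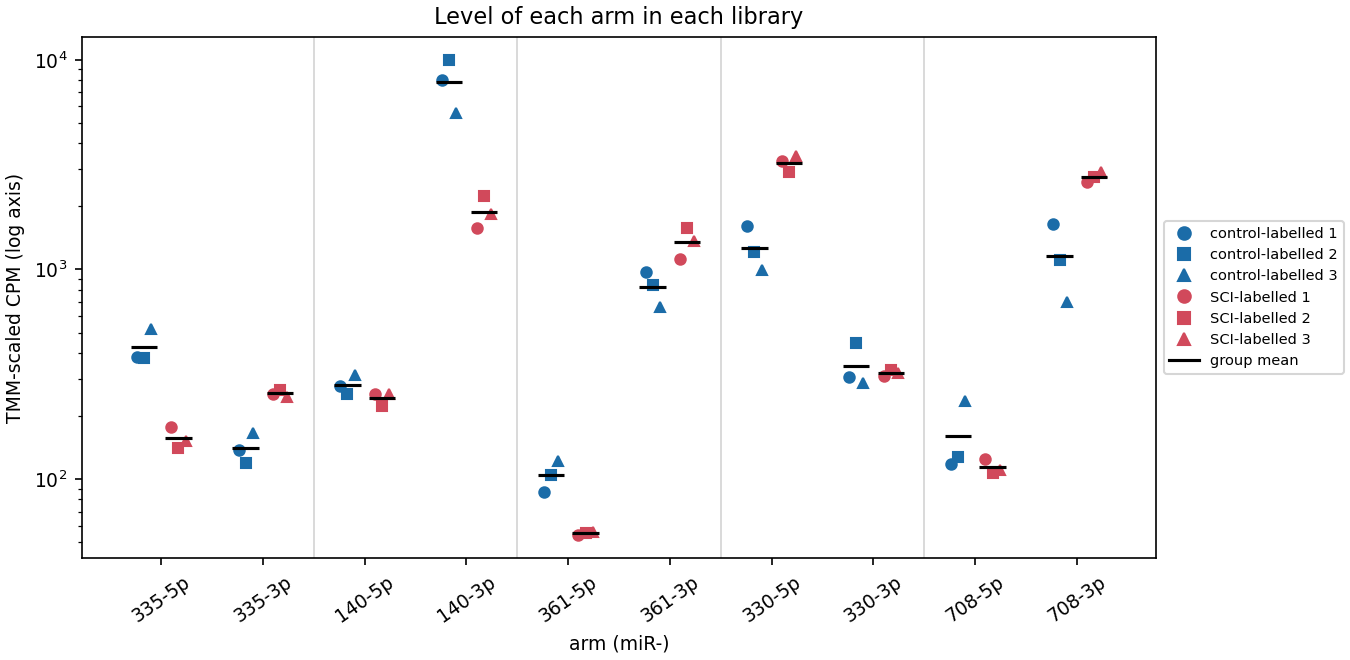
TMM-scaled CPM (log axis) of the 10 arms in each of the 6 libraries, with a black bar at each group mean. The groups overlap for miR-140-5p, miR-330-3p and miR-708-5p and are separate for the other arms, and control-labelled library 3 is the highest control-labelled library for all 5p arms except miR-330-5p.

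Among the 10 arms the groups did not overlap in 7, against 51.3% of the 614 rows tested. Leaving out control-labelled library 3 could only raise this count, and it stayed the same. Of these 7, miR-335-3p, miR-361-3p, miR-330-5p and miR-708-3p were higher among SCI-labelled libraries, and miR-335-5p, miR-361-5p and miR-140-3p were lower. Over the 614 rows, 23.3% did not overlap and were higher and 28.0% did not overlap and were lower. edgeR's quasi-likelihood test called 39.4% of rows, 16.3% as higher and 23.1% as lower. In miR-140, miR-330 and miR-708 the arm whose groups did not overlap was the major arm of the hairpin, and the minor arm overlapped. The fitted changes of the 2 arms had opposite signs in 63 of the 179 hairpins (35.2%), and in 32 of the 54 called for arm usage. They had opposite signs in 4 of the 5 described, of which only miR-335 and miR-361 had non-overlapping groups for both arms. In miR-330 this rested on the 3p sign, which turned without control-labelled library 2. A choice on the arm ratio favours opposite signs, so nothing is read from the count of 4. With scaling by the upper quartile the median log2 fold change of all rows moved by 0.11, and each of the 10 arms kept its sign, with miR-330-3p at -0.01.

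**Figure D3:**
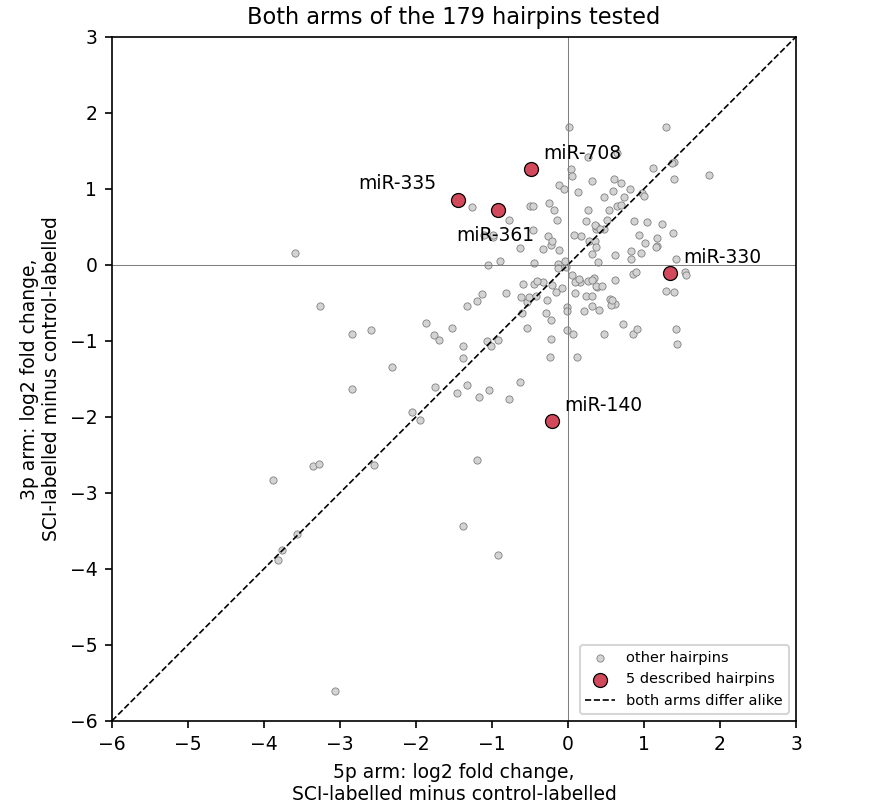
Log2 fold change (SCI-labelled minus control-labelled, edgeR) of the 3p arm against that of the 5p arm for the 179 hairpins with both arms tested, with the 5 described hairpins in red and a dashed line where both arms differ alike. miR-335 (-1.45 for 5p, 0.86 for 3p), miR-361 (-0.92, 0.72) and miR-708 (-0.49, 1.26) lie in the quadrant of a lower 5p and a higher 3p arm, and miR-330 (1.35, -0.11) and miR-140 (-0.21, -2.06) lie below the line.

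The first bases of the arms were compared next, as a property not used in choosing the hairpins. Of the 9 arms with a sequence, 6 begin with U: both arms of miR-335 and miR-361, miR-330-5p and miR-140-3p. In miR-708 the major 3p arm begins with C and the minor 5p arm with A. Among 145 tested hairpins with both sequences, the arm with more reads in control-labelled libraries begins with U in 44.8% and the other arm in 26.2%. Pairing of the first 4 bases of each arm was scored in the predicted fold of the hairpin. The score weights G-C pairs above A-U pairs and A-U pairs above G-U pairs, and is not a count of hydrogen bonds. It was 7 for 5p and 8 for 3p in miR-335, 4 and 8 in miR-361, and 10 and 8 in miR-330. Of these 3 hairpins, only in miR-335 was the major arm of the control-labelled libraries the one with the lower score at its 5′ end. Over 136 hairpins the major arm had the lower score in 72 (52.9%) and the higher in 48 (35.3%).

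miRNAs from other hairpins with the same seed were looked up, since they would address the same targets. Their values were not used in choosing the 5 hairpins, so they were tested. miR-28a-5p has the seed of miR-708-5p, miR-326-3p that of miR-330-5p, miR-497b that of miR-140-3p, and miR-6240 that of miR-330-3p. No other mature sequence in the RefSeq table has a seed of miR-335, miR-361 or miR-708-3p. The pairs are printed to show how far the likeness goes beyond the seed.
miR-28a-5p: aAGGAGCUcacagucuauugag
miR-326-3p: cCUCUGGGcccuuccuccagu
miR-497b: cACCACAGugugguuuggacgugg
miR-6240: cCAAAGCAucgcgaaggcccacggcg
Of the 3 relatives that passed the filter, 1 changed, miR-28a-5p, which was lower; the share of all rows called lower was 23.1%. It was at 28.0, 32.2 and 26.8 CPM in control-labelled libraries 1, 2 and 3 and at 12.3, 8.37 and 13.9 CPM among SCI-labelled ones. It fell by 1.33 on the log2 scale (SE 0.25; edgeR adjusted p = 0.00365), with all SCI-labelled libraries below all control-labelled ones.

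Of the other relatives, miR-326-3p and miR-497b passed the filter but not the test. miR-326-3p was at 45.2, 77.3 and 182 CPM among control-labelled and at 76.3, 62.0 and 57.3 CPM among SCI-labelled libraries. Its log2 change was -0.64 (SE 0.45; edgeR adjusted p = 0.293), and 0.14 without control-labelled library 3, the highest of all. miR-497b was at 4.48, 1.99 and 2.71 CPM and at 6.44, 4.65 and 4.64 CPM, a log2 change of 0.77 (SE 0.35; edgeR adjusted p = 0.120). Without control-labelled library 1 it passed the test, at 1.21 (edgeR adjusted p = 0.0332). miR-6240 had 12, 21 and 6 reads among control-labelled and 2, 0 and 0 among SCI-labelled libraries and did not pass the filter. miR-28c, with 0, 0 and 2 reads against 3, 0 and 0, was also too low to test.

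The arm ratios of the hairpins related to miR-708 were tested in the same way. In miR-28a the log2 ratio was -1.75, -1.50 and -1.01 in control-labelled libraries 1, 2 and 3 and -0.73, -2.06 and -0.83 among SCI-labelled ones. The groups overlapped, and the difference of 0.22 (SE 0.48) was not called (edgeR diffSpliceDGE adjusted p = 0.685). In miR-151, a further relative by its 5p sequence, the ratio was -4.48, -4.12 and -1.43 against -3.01, -3.95 and -3.61. Its difference of -0.18 (SE 1.00) was not called either (adjusted p = 0.941 by edgeR diffSpliceDGE). This rested on control-labelled library 3: without it the groups did not overlap, and the difference was 0.78, toward 5p and called (edgeR diffSpliceDGE adjusted p = 0.0173). Control-labelled library 3 stood toward 5p in miR-151 as it did in miR-708. Whether miR-708 differs from these relatives in its shift was not tested.

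Across the other 174 hairpins, control-labelled library 3 was compared with the others of its group. Its log2 ratio was above the mean of control-labelled libraries 1 and 2 in 43.7% of them, with a median difference of -0.12. Among the 5 hairpins its ratio was higher by 1.90 in miR-708, 0.92 in miR-140 and 0.79 in miR-361, and differed by 0.07 in miR-335 and by -0.13 in miR-330. Medians over the 174 hairpins, each centred on its own mean, ran from -0.12 in control-labelled library 3 to 0.07 in SCI-labelled library 1.

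The hairpins with the most similar profile of log2(5p/3p) over the 6 libraries were found by the root mean square difference after centring each profile on its own mean. For miR-335 they were miR-615 (0.34) and miR-503 (0.43), and for miR-140 miR-467d (0.41) and miR-3093 (0.45). For miR-361 they were miR-30a (0.19) and miR-30e (0.23). For miR-330 they were miR-434 (0.17) and miR-152 (0.20), and for miR-708 miR-195a (0.24) and miR-340 (0.31). The median over all other hairpins lay between 0.91 and 1.27 for the 5 hairpins. All profiles come from the same 6 libraries and contain the group difference on which the 5 hairpins were chosen. The measure therefore favours hairpins with a like group difference, and the nearest ones lie below the median by construction. Nothing is read from the likeness. Some of the similar hairpins have a thin arm, with a mean of 21.7 reads for miR-615-5p, 10.8 for miR-467d-5p and 22.2 for miR-3093-3p, while miR-30a (4283 reads for its lesser arm) and miR-434 (16015) are deep.

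Marker miRNAs of other cells moved with the groups, and their part in the arm ratios was not tested. All 5 leukocyte markers were lower among SCI-labelled libraries by edgeR, with a summed level of 1778 to 2983 CPM against 328 to 450 CPM. All 4 erythroid markers were lower, at 9426 to 32718 CPM against 2481 to 5231 CPM, and all 3 fibroblast markers, at 1830 to 3299 CPM against 555 to 1055 CPM. Of 4 neuronal markers 3 were called higher and none was called lower. The summed level of all 4 was 64861 to 93317 CPM against 124616 to 137011 CPM. The marker not called, miR-124-3p, went the other way, with a log2 fold change of -0.52. Most of the sum was miR-9-5p, with means of 64270 CPM among control-labelled and 96125 CPM among SCI-labelled libraries. None of 3 oligodendrocyte markers was called, at 8049 to 10923 CPM against 9582 to 10498 CPM. None of 4 skeletal muscle markers was called; their sum was 37774 CPM in control-labelled library 3 and 8283 to 20423 CPM in the other libraries. No marker was at 0 reads in any library.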

How the data were processed

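Small RNA libraries were made from 3 µg of total RNA per sample with the NEBNext small RNA kit, per the labels' protocols. The submitters' processing notes name Bowtie and mm10. How reads matching several miRNAs were handled, the miRBase release and the mismatch allowance were not given in the sources used here. The authors deposited whole-number read counts per mature miRNA, without normalization. They also deposited a TPM column, equal to CPM over the column total (largest relative gap 3.83e-09), which was not used further. All 12 value columns were matched through the sample descriptions. No row had counts within 10% of a described arm's in every library, and libraries of a group differed by far more than sampling noise.

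Analysis of the counts used edgeR 4.0.16 (R 4.3.3). filterByExpr with a minimum count of 10 kept 614 of 1482 rows. TMM scaling, robust quasi-likelihood F tests and Benjamini-Hochberg adjustment over 614 rows (threshold 0.05) followed. Standard errors of fold changes are the size of the change over the square root of F. Arm usage was tested with diffSpliceDGE, adjusted over 179 hairpins. Ratios used 0.5 added to each count. Standard errors of differences in ratio come from the group SDs. Positions came from RefSeq (GRCm38.p6) and GENCODE M21, folds from RNAfold 2.7.2, and exact intervals from scipy 1.17.1. The steps were tested on simulated data. DESeq2 1.42.0 and limma 3.58.1 served as alternatives.

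The members and lists were chosen with earlier results of these data known. Named miRNAs are the described arms, their seed relatives with miR-28c and miR-151, the 2 nearest hairpins to each, and 3 miRNAs that check labels and tissue. P-values measure the spread between libraries of a group, which may be partly technical.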

Additional observations from a re-analysis of the deposited data

How the results depend on the processing

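The difference in arm ratio kept its direction, and moved by less than the spread between libraries (the pooled SD of the groups), in all 5 hairpins under each of 10 alternatives. Because the groups of these hairpins do not overlap, leaving out a library, taking medians or summing counts could not turn the direction. With 3 libraries per group, leaving out a library also cannot move a difference by more than the pooled SD. Stability is therefore not read from these results, and only the size of each difference is given. Leaving out single libraries gave log2 differences of -2.40 to -2.21 for miR-335, 1.57 to 2.13 for miR-140, -1.88 to -1.36 for miR-361, 1.23 to 1.72 for miR-330 and -2.25 to -1.13 for miR-708. Of 120 arm-level values under alternatives, 116 moved by less than that spread, 3 moved by more with the same sign, and 1 reversed: miR-330-3p, at -0.19 to 0.10 without single libraries, the latter without control-labelled library 2. miR-28a-5p passed the test under each of 12 alternatives, with log2 changes of -1.47 to -1.09 without single libraries. Over the same alternatives miR-326-3p ran from -0.91 to 0.14 and miR-497b from 0.55 to 1.21. Called rows numbered 242, with 141 (without SCI-labelled library 3) and 160 (without SCI-labelled library 1) up to 331 (without control-labelled library 3). Called hairpins numbered 54, with 29, 33 and 30 without SCI-labelled library 1, 2 and 3, up to 71 (without control-labelled library 3), and 27 by limma on the log ratio; the cause was not tested. Same-numbered libraries showed only weak correlations of their deviations from the group means (-0.26, 0.17 and -0.18). This cannot exclude a pairing, since the groups are small and the deposited column names of the control-labelled samples carry other numbers. With the replicate block 190 rows and 46 hairpins were called. In an alternative chosen after seeing the data, leaving out single libraries gave arm differences of -0.74 to 0.78 for miR-151, with 0.04 without SCI-labelled library 2, and of -0.020 (without SCI-labelled library 1) to 0.64 for miR-28a. Depth limits the ratio through the arm with fewer reads, down to 356 reads for miR-361-5p in SCI-labelled library 2.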
